A study of Mus musculus with 9 samples.

Results

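The transcription factors that drive epithelial-to-mesenchymal transition (EMT) were examined as a group in RNA-Seq data of NMuMG cells, an immortalized mouse mammary gland epithelial line. Members were matched by gene symbol, and the symbols were chosen with earlier results of these data known. They were *Snai1*, *Snai2*, *Zeb1*, *Zeb2*, *Twist1*, *Twist2*, *Tcf3*, *Tcf4*, *Foxc2* and *Prrx1*. These are 10 of the 52459 gene symbols in the data and hold 128 of the 131100 transcripts. The 9 libraries fall into 3 groups of 3. Mock cells carried the empty pBICEP vector, EPR cells the same vector with the full long noncoding RNA EPR (BC030870), and EPRSTOPE cells EPR with a stop codon placed in its small open reading frame, so that the peptide is not made. All 3 groups were pools of stable transfectants selected with G418, and no TGF-β treatment is stated for these libraries. The study's methods call the 3 libraries of a group biological triplicates. Whether they came from separately transfected pools is not stated, so the p-values measure the spread between these libraries. The construct cannot be told apart from other differences between the pools.

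SNAI, ZEB and TWIST proteins and the E proteins encoded by *Tcf3* and *Tcf4* bind short DNA elements called E-boxes. SNAI and ZEB are zinc finger repressors of epithelial genes such as *Cdh1*, the gene for the adhesion protein E-cadherin. TWIST and E proteins are helix-loop-helix factors that bind as dimers and are held back by Id proteins, which dimerize but lack a DNA-binding region. FOXC2 is a forkhead factor and PRRX1 a homeobox factor, both linked to mesenchymal states. In mammary epithelium these factors are known for lowering cell-to-cell adhesion when cells respond to TGF-β.

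The E-box that SNAI and ZEB factors recognize, CAGGTG or its reverse complement CACCTG, was looked up in the 250 bases before each start in the RefSeq promoter table of GRCm38.p6. It was present in 17.2% of 32851 such windows and in at least 1 window of 19.4% of 27025 genes. Of the 10 factors, 6 had a promoter in the table, and 1 of these 6, *Snai1*, held the motif. The windows of *Zeb2* (4 starts), *Twist1*, *Twist2*, *Tcf3* and *Prrx1* did not hold these letters. Of 27 epithelial genes listed as targets of these factors, 18 had a promoter in the table and 11 held the motif, and of 12 epithelial transcription factors that oppose EMT 8 had one and 4 held it. *Cdh1* was among the genes without a promoter in the table. The lists were chosen for their known link to these factors, so the shares are a description and no enrichment was tested. A match is a stretch of letters and was not tested as a bound site. The stretches below, not all that matched, were chosen because the expression of their genes is described further on. *Crb3* and *Muc1*, epithelial targets called lower in EPRSTOPE, also held the motif, and their stretches are not printed. Each is written 5′ to 3′ on the gene's strand with the motif in capitals.
*Snai1*, chr2:167538057-167538086, plus strand, 126 bases before the start: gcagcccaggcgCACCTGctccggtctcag
*Ocln*, chr13:100552694-100552723, minus strand, 213 bases before the start: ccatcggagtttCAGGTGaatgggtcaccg
*Ocln*, chr13:100552549-100552578, minus strand, 68 bases before the start: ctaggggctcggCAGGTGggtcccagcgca
*Epcam*, chr17:87635780-87635809, plus strand, 187 bases before the start: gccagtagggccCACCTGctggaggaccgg
*Krt18*, chr15:102027990-102028019, plus strand, 214 bases before the start: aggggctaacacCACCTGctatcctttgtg
*Elf3*, chr1:135258595-135258624, minus strand, 140 bases before the start: gaatatgcaaatCACCTGggacagggagcc
*Foxa1*, chr12:57546117-57546146, minus strand, 23 bases before the start: gcggccgcctcaCAGGTGcacctcgggctt

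The labels and the cell type were checked first. The library totals ran from 5972457 to 11876435 estimated counts, at which 3 counts equal 0.243 to 0.507 CPM (counts scaled to the library total and normalized). EPR RNA had 0 to 2 counts in the mock libraries, 214 to 271 in the EPR libraries and 28 to 39 in the EPRSTOPE libraries, so its mean level was 24.8 CPM in EPR and 4.22 CPM in EPRSTOPE cells, and the 2 overexpressing groups differed in dose as well as in the open reading frame. The keratin genes *Krt8* and *Krt18* were abundant in every group, with means from 1521 CPM for *Krt18* in mock to 5960 CPM for *Krt8* in EPRSTOPE cells. Other defining epithelial markers went against the label. *Epcam*, *Cldn3*, *Cldn7* and *Esrp1* had no count in any mock library, *Cldn3*, *Cldn7* and *Esrp1* had none in any EPRSTOPE library, and *Cdh1* stood at 0.840 CPM in mock, 554.5 CPM in EPR and 401.5 CPM in EPRSTOPE cells. Summed over the 9 epithelial markers, the level was 2310 to 2898 TPM (counts scaled by transcript length and library total) in mock, 5186 to 6426 in EPR and 5691 to 7704 in EPRSTOPE cells. *Krt8* and *Krt18* had the highest CPM of these 9 in every group. The 11 fibroblast and mesenchymal markers summed to 3830 to 4449 TPM in mock, 2570 to 3287 in EPR and 3689 to 4992 in EPRSTOPE cells, with *Col3a1* and *Pdgfra* at 0 counts in mock. In mock, EPR and EPRSTOPE cells *Vim* averaged 2624, 1762 and 3130 CPM, *Fn1* 1036, 377.6 and 780.1, and *Cdh2* 329.3, 131.9 and 157.9. *Acta2* averaged 10.04, 1.163 and 0.7992 CPM. *S100a4* was higher in both overexpressing groups, at 235.5, 494.1 and 548.8 CPM, and *Pdgfra* had 35 counts in EPR and 32 in EPRSTOPE cells. Basal, endothelial and leukocyte markers summed to at most 2.03, 8.14 and 3.81 TPM in any library, with *Trp63*, the defining basal factor, at 0 in all 9. The part of these marker shifts in the results below was not tested. In bulk RNA, fewer cells expressing a gene and less RNA per cell cannot be told apart.

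On the length-scaled TPM scale, the factors of mock cells differed widely in level. *Tcf3* (31.6 ± 1.96 TPM, SD, n = 3), *Zeb1* (29.1 ± 9.12), *Zeb2* (20.5 ± 2.58) and *Twist2* (20.2 ± 2.09) were the most abundant, and neighbours among these 4 overlapped. *Tcf4* followed at 11.9 ± 1.81 TPM, then *Snai2* at 3.08 ± 0.531 and *Snai1* at 1.26 ± 0.332, with no overlap between neighbours. *Prrx1*, *Foxc2* and *Twist1* were near or at 0. In EPR cells the order was *Zeb1*, *Tcf3*, *Zeb2*, *Tcf4*, *Twist2*, *Snai1* and *Snai2*, and the same order held in EPRSTOPE cells, so *Twist2* fell below *Tcf4* in the ranking and *Snai1* passed *Snai2*. Among these 7, *Zeb1* overlapped with *Tcf3* and *Zeb2* with *Tcf4* in EPR cells, and no other neighbours did. In EPRSTOPE cells *Zeb1* overlapped with *Tcf3* and *Tcf4* with *Twist2*. The 10 factors together summed to 103.8 to 127.7 TPM in mock, 64.2 to 88.3 in EPR and 85.7 to 88.8 in EPRSTOPE cells. Neither overexpressing group overlapped with mock in this sum, beside 57.8% and 56.4% of single tested genes that did not overlap in CPM. TPM carry no normalization factor between libraries, which for CPM was 1.026 to 1.082 in mock, 0.9774 to 1.003 in EPR and 0.9597 to 0.9678 in EPRSTOPE libraries. Nothing about the factors as a set is read from the sum.

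Of the 10 factors, 7 had at least 1 CPM in at least 3 libraries and were tested. A factor was called where its adjusted p was below 0.01 and its log2 fold change exceeded 0.5 in size. In EPR against mock, *Snai2*, *Twist2* and *Zeb2* were called lower and none was called higher, 3 of 7, beside 28.1% of all 15370 tested genes called in either direction, 15.2% higher and 12.9% lower. In EPRSTOPE against mock, *Snai2* and *Twist2* were called lower and *Snai1* higher, again 3 of 7, beside 28.0% of all tested genes, 15.6% higher and 12.4% lower. In EPR against EPRSTOPE none was called, beside 13.2% of all genes, 6.86% higher and 6.35% lower. In that comparison 3 of the 7 had an unadjusted p under 0.05 in edgeR, and DESeq2 and limma-voom also called 0. An adjusted p under 0.05 was likewise reached by 3 of the 7, beside 4637 of all 15370 tested genes. The median log2 fold change of the 7 was -0.48 in EPR and -0.29 in EPRSTOPE against mock, beside -0.01 and -0.04 over all tested genes. Both comparisons use the same 3 mock libraries. The groups did not overlap for 6 of 7 factors in EPR against mock, beside 57.8% of all genes, for 5 of 7 in EPRSTOPE against mock, beside 56.4%, and for 4 of 7 in EPR against EPRSTOPE, beside 43.0%. With 7 genes these counts cannot be set apart from the background, and nothing about the factors as a set is read from them.

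**Figure D1:**
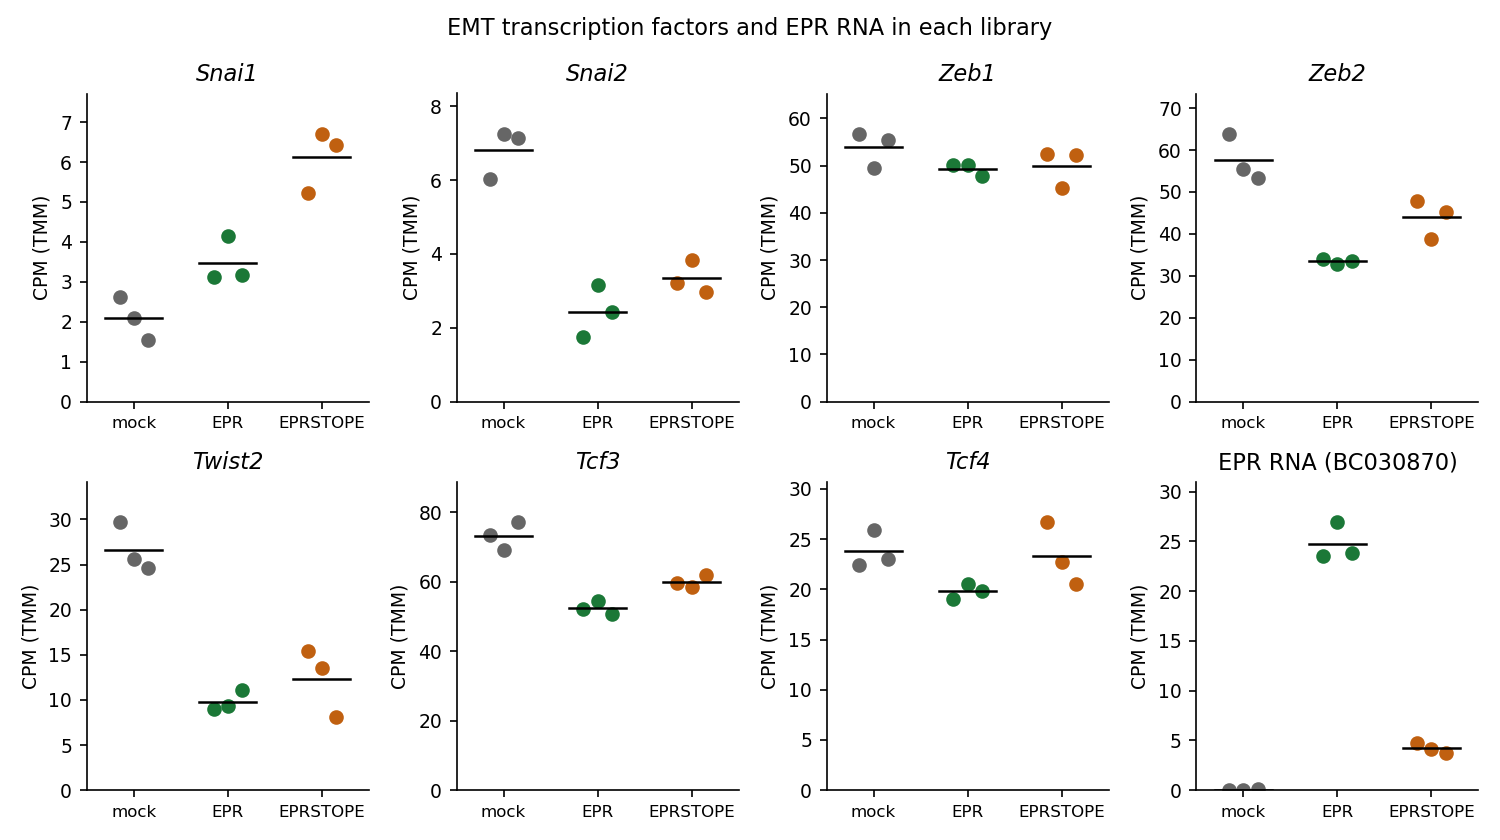
Level in each library, in CPM normalized by the trimmed mean of M values (TMM), of the 7 tested factors and EPR RNA. Points are libraries, lines are group means of 3 and each panel has its own axis from 0. *Snai2*, *Zeb2*, *Twist2* and *Tcf3* are highest in the 3 mock libraries, *Snai1* is lowest there, and *Zeb1* overlaps in all groups.

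The SNAI genes moved in opposite directions. *Snai1* (ENSMUSG00000042821.7, chromosome 2 of GRCm38, 167538195 to 167542814) had 2.63, 2.10 and 1.54 CPM in mock libraries 203, 204 and 205. It had 3.13, 4.16 and 3.17 CPM in EPR libraries 206, 207 and 208, and 5.24, 6.71 and 6.43 CPM in EPRSTOPE libraries 209, 210 and 211. The 3 groups did not overlap, mock being lowest and EPRSTOPE highest. *Snai1* rose 3.002-fold in EPRSTOPE against mock (log2 fold change 1.59, standard error 0.27, adjusted p = 0.00045). In EPR against mock the value of 0.76 (standard error 0.28, adjusted p = 0.041) missed the p threshold. These values rest on 17 to 20 counts per mock library and 31 to 63 in the others.

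*Snai2* encodes Slug, the SNAI factor linked to the basal and stem cell state of the mammary gland. *Snai2* (ENSMUSG00000022676.6, chromosome 16, 14705852 to 14709385) had 6.03, 7.26 and 7.14 CPM in the mock libraries, 1.74, 3.15 and 2.42 CPM in EPR and 3.21, 3.83 and 2.98 CPM in EPRSTOPE. Mock was above both other groups, and those overlapped with each other. *Snai2* fell 2.84-fold in EPR (log2 fold change -1.505, standard error 0.26, adjusted p = 0.00043) and 2.04-fold in EPRSTOPE (log2 fold change -1.03, standard error 0.26, adjusted p = 0.0055). The EPRSTOPE call was lost without mock 204, mock 205, EPRSTOPE 209 or EPRSTOPE 211, with log2 fold changes of -0.99, -0.999, -1.0 and -0.94 and adjusted p from 0.017 to 0.021, and with counts scaled from TPM (-0.83, adjusted p = 0.069). For EPR against EPRSTOPE the difference of -0.48 had a 95% interval from -1.08 to 0.12, and it was -0.27 without EPR 206 and -0.68 without EPR 207.

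With length taken into account, *Snai1* made up 22.5% to 37.0% of the summed *Snai1* and *Snai2* TPM in mock libraries, 62.7% to 70.3% in EPR and 67.2% to 74.4% in EPRSTOPE libraries. By TPM the predominant SNAI transcript was therefore *Snai2* in every mock library and *Snai1* in all 6 others. In the EPR libraries this rests on 33 to 36 counts of *Snai1* and 20 to 26 of *Snai2*. Counting error was not taken into account in these shares. The sum of both was 3.93 to 5.02 TPM in mock, 2.59 to 3.99 in EPR and 4.47 to 6.72 in EPRSTOPE cells, with mock overlapping both.

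**Figure D2:**
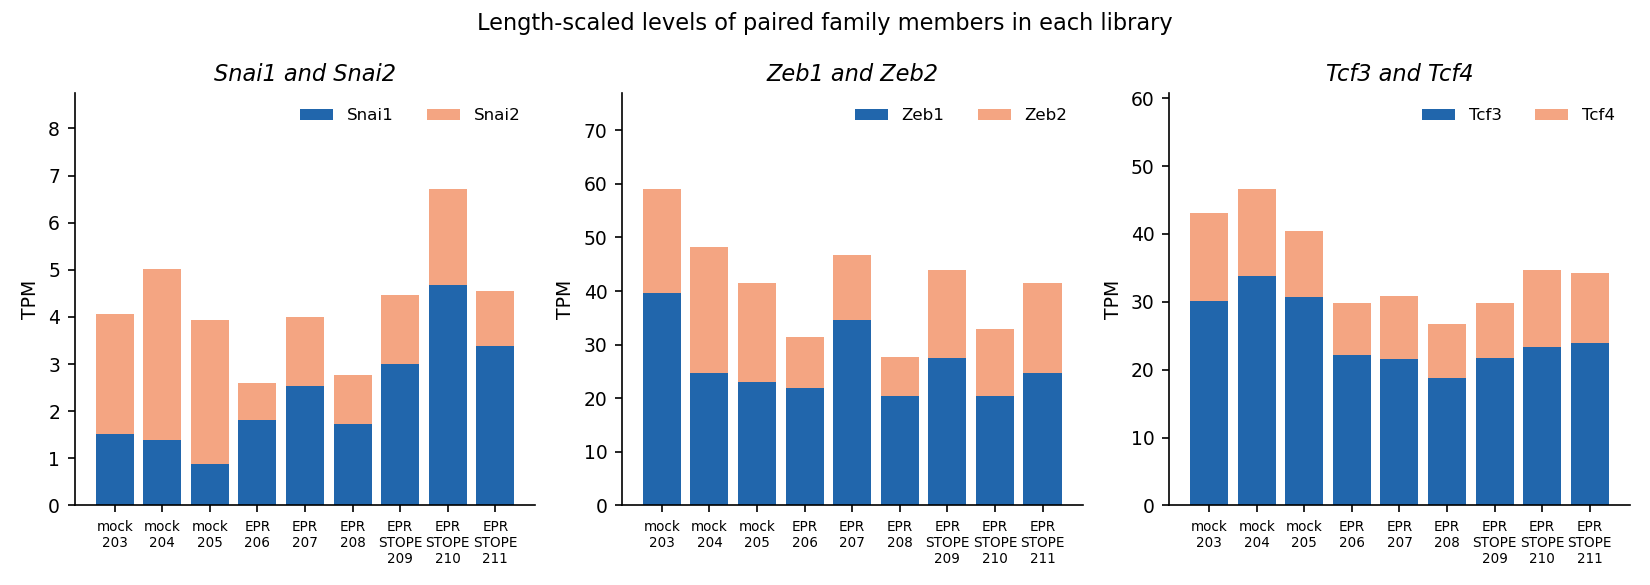
TPM of *Snai1* and *Snai2*, *Zeb1* and *Zeb2*, and *Tcf3* and *Tcf4* in each of the 9 libraries, stacked so that bar height is the sum of the pair. *Snai2* is the larger portion in mock 203 to 205 and *Snai1* the larger portion in the other 6, while the division between *Tcf3* and *Tcf4* overlaps in all groups.

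The ZEB genes differed from each other. *Zeb2* (ENSMUSG00000026872.17, chromosome 2, 44983632 to 45117395) had 63.9, 55.4 and 53.3 CPM in mock, 34.1, 32.7 and 33.5 CPM in EPR and 47.8, 38.8 and 45.3 CPM in EPRSTOPE libraries. The groups did not overlap, and EPRSTOPE lay between the others. *Zeb2* fell 1.71-fold in EPR (log2 fold change -0.78, standard error 0.10, adjusted p = 2.9e-05). In EPRSTOPE against mock its log2 fold change of -0.39 passed the p threshold (adjusted p = 0.0048) but not the fold limit. That adjusted p in edgeR ran from 0.0037 to 0.023 with 1 library left out. With counts scaled from TPM it was 0.43, at a log2 fold change of -0.235. In EPR against EPRSTOPE the value of *Zeb2* was -0.39 (standard error 0.10, adjusted p = 0.0096).

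*Zeb1* (ENSMUSG00000024238.14, chromosome 18, 5591860 to 5775467) had 56.8, 49.4 and 55.4 CPM in mock, 50.1, 50.1 and 47.9 CPM in EPR and 52.4, 45.3 and 52.3 CPM in EPRSTOPE libraries. All 3 groups overlapped. Its log2 fold change was -0.13 in EPR against mock (95% interval -0.30 to 0.05, adjusted p = 0.23) and -0.11 in EPRSTOPE against mock (-0.29 to 0.07, adjusted p = 0.29), so both intervals stay within the fold limit of 0.5. *Zeb1* made up 51.4% to 67.0% of the summed ZEB TPM in mock, 69.7% to 73.8% in EPR and 59.6% to 62.3% in EPRSTOPE libraries, so EPR lay above both other groups. The TPM of *Zeb1* was more spread than its CPM, from 23.0 to 39.6 TPM within mock.

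Of the TWIST genes, counts were found for *Twist2* only. *Twist1* had 0 counts in all 9 libraries, which allows at most 0.243 to 0.507 CPM per library, counting error only. *Twist2* (ENSMUSG00000007805.4, chromosome 1, 91801461 to 91848028) had 29.7, 25.7 and 24.7 CPM in mock, 8.96, 9.32 and 11.1 CPM in EPR and 15.4, 13.5 and 8.15 CPM in EPRSTOPE libraries. Mock was above both, and EPRSTOPE 211 lay below every EPR library. *Twist2* fell 2.71-fold in EPR (log2 fold change -1.44, standard error 0.19, adjusted p = 5.8e-05) and 2.18-fold in EPRSTOPE (log2 fold change -1.12, standard error 0.19, adjusted p = 0.00043). With counts scaled from TPM the EPRSTOPE value was -0.98 (adjusted p = 0.011) and was not called. The direct difference was -0.32 (95% interval -0.76 to 0.13), and it was -0.14 without EPRSTOPE 209 and -0.55 without EPRSTOPE 211 (adjusted p = 0.67 and 0.021). An antisense gene that overlaps *Twist2*, *Gm29100*, had means of 2.26, 0.556 and 2.16 CPM in mock, EPR and EPRSTOPE cells, which is small beside *Twist2*. The strand setting used in counting is not stated.

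Among the E proteins, *Tcf3* (E2A, ENSMUSG00000020167.14, chromosome 10, 80409514 to 80433647) had 73.3, 69.2 and 77.2 CPM in mock, 52.0, 54.5 and 50.8 CPM in EPR and 59.6, 58.4 and 61.8 CPM in EPRSTOPE libraries. The 3 groups did not overlap, in the same order as for *Zeb2*. The log2 fold change of *Tcf3* was -0.48 in EPR (standard error 0.06, adjusted p = 5.2e-05) and -0.29 in EPRSTOPE (standard error 0.06, adjusted p = 0.0025), both past the p threshold and short of the fold limit. Without mock 204 or EPR 207 it reached -0.53 or -0.51 in EPR and was called. With counts scaled from TPM the adjusted p of *Tcf3* in edgeR missed the threshold, at 0.023 in EPR and 0.097 in EPRSTOPE. In EPRSTOPE it ran from 0.0023 to 0.015 with 1 library left out.

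*Tcf4* (E2-2, ENSMUSG00000053477.16, chromosome 18, 69343356 to 69689079) had 22.4, 25.9 and 23.0 CPM in mock, 19.1, 20.5 and 19.8 CPM in EPR and 26.7, 22.7 and 20.5 CPM in EPRSTOPE libraries. EPR lay below mock without overlap, whereas EPRSTOPE overlapped with mock. Neither difference was called, the log2 values being -0.27 (adjusted p = 0.066) in EPR and -0.04 (adjusted p = 0.80) in EPRSTOPE. *Tcf3* made up 69.9% to 75.8% of the pair in mock, 70.0% to 74.2% in EPR and 67.5% to 72.9% in EPRSTOPE libraries.

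*Foxc2* and *Prrx1* were too low to test. *Foxc2* had 0, 2 and 0 counts in mock, 2, 2 and 0 in EPR and 0, 4 and 3 in EPRSTOPE libraries. *Prrx1* had 1, 4 and 4 counts in mock, 1, 0 and 1 in EPR and 0, 0 and 1 in EPRSTOPE libraries. No difference of either was detectable at this depth. *Foxc2* overlaps on the same strand with *Gm20388*, which had means of 90.7, 113.5 and 97.7 CPM in mock, EPR and EPRSTOPE cells, so the count of *Foxc2* is uncertain.

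**Figure D3:**
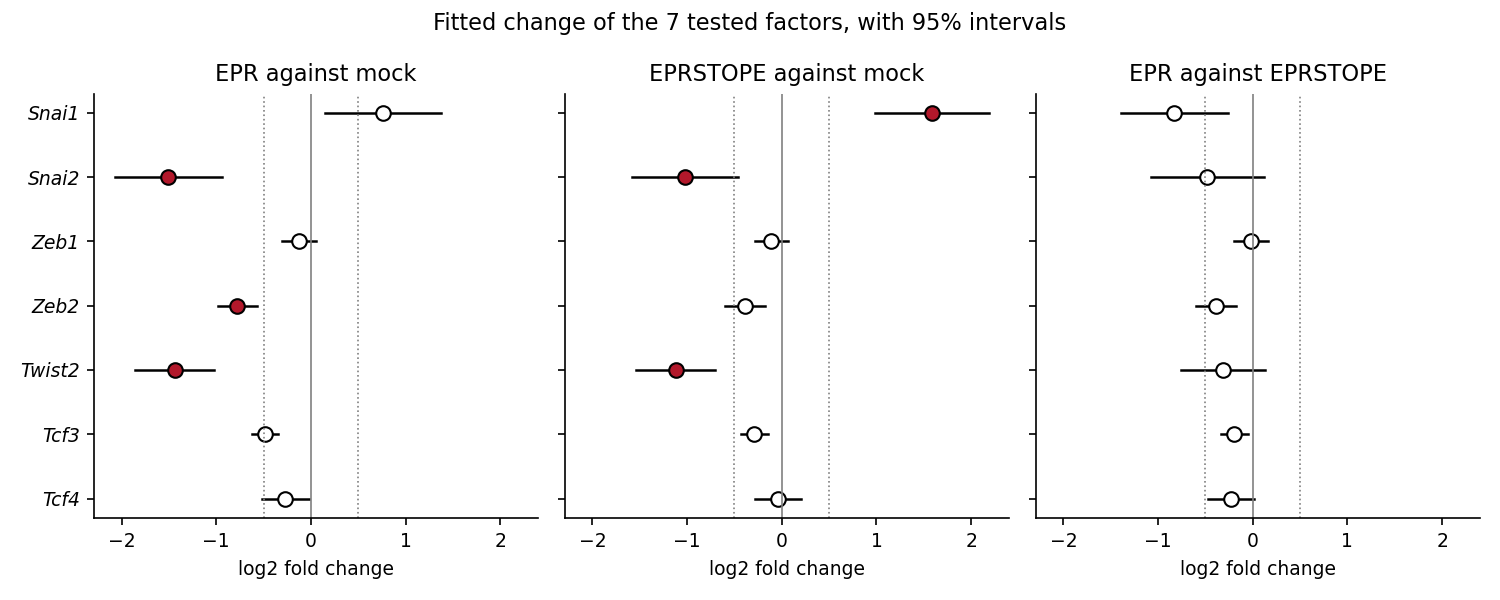
Log2 fold change of the 7 tested factors in the 3 comparisons, from edgeR, with bars for the 95% interval and dotted lines at the fold limit of 0.5 on both sides. Filled points were called. *Snai1* lies right of 0 against mock while *Snai2*, *Zeb2*, *Twist2* and *Tcf3* lie left of it.

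Transcripts of a gene were assigned with less certainty than the gene itself. *Snai1*, *Snai2*, *Twist1* and *Foxc2* have 1 transcript each, *Twist2* 2, *Prrx1* 5, *Zeb1* 12, *Tcf3* 14, *Zeb2* 29 and *Tcf4* 62. *Twist2-201*, which held most of the *Twist2* counts, had 170.4, 225.0 and 275.6 estimated counts in mock, 85.3, 64.0 and 96.1 in EPR and 83.7, 116.3 and 63.1 in EPRSTOPE libraries. It fell in EPR (log2 fold change -1.51, standard error 0.26, adjusted p = 0.0098) and was the only main transcript of the 7 factors called in a comparison. The main *Zeb2* transcript, *Zeb2-214*, was at -1.12 in EPR (adjusted p = 0.058). In this fit across transcripts the single *Snai2* transcript was at -1.43 (adjusted p = 0.038) in EPR and the single *Snai1* transcript at 1.58 (adjusted p = 0.024) in EPRSTOPE. *Zeb2-201* went from 9.99 counts in EPR 206 to 102.4 in EPR 207, and *Tcf3-214* from 0 in EPRSTOPE 209 to 134.0 in EPRSTOPE 211, so the division of these genes into transcripts varied between libraries of 1 group. *Zeb1-201*, the main *Zeb1* transcript, was at 0.02 (adjusted p = 0.98) in EPR.

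**Figure D4:**
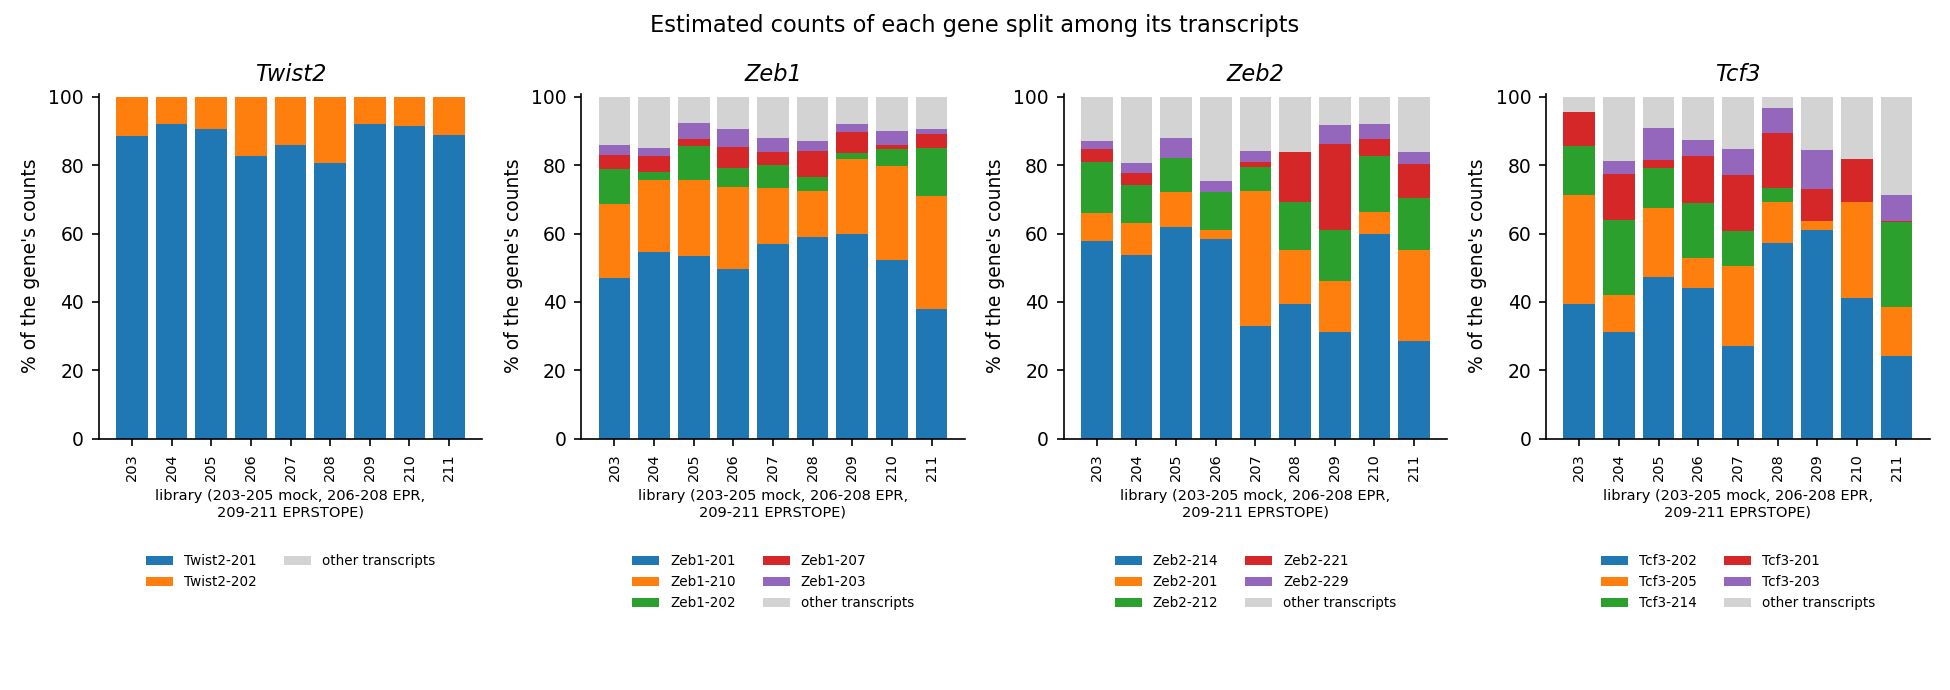
Percent of the estimated counts of *Twist2*, *Zeb1*, *Zeb2* and *Tcf3* given to each transcript, per library. The 5 most abundant tested transcripts are coloured and all others are grey. *Twist2-201* takes most of *Twist2* in all 9 libraries, whereas the shares within *Zeb2* and *Tcf3* differ widely between libraries of the same group.

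Genes that act on the factors were described from lists. Among dimer partners and Id inhibitors, 4 of 5 were tested. In EPR against mock, *Id1* rose and *Id2* and *Id3* fell, 3 of 4 beside 28.1% of all genes. *Id2* had 184.7, 212.1 and 199.6 CPM in mock, 107.7, 99.97 and 116.8 CPM in EPR and 88.4, 90.4 and 70.3 CPM in EPRSTOPE libraries, and fell in both (-0.88, adjusted p = 1.2e-05, and -1.26, adjusted p = 5.4e-07). *Id1* went the other way, at 0.67 (adjusted p = 3.7e-06) in EPR. *Id3* fell in both groups, at -0.67 and -0.69. The Id genes therefore did not move together.

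Of 12 corepressor components, through which SNAI and ZEB proteins silence genes, 2 were called lower in EPR and 0 higher, beside 12.9% and 15.2% of all genes. These were *Ezh2*, the methyltransferase of the Polycomb complex (log2 fold change -1.04, adjusted p = 4.7e-08), and its partner *Suz12* (-0.53, adjusted p = 4.1e-05). In EPRSTOPE, 2 were called lower and 1 higher, beside 12.4% and 15.6% of all genes. Of 13 regulators of SNAI protein stability, 4 were called lower and 1 higher in EPR, beside 28.1% of all genes in either direction. *Prkd1*, a kinase that phosphorylates SNAI1, had 26, 39 and 60 counts in mock and 0 in every EPR library, and 4, 0 and 0 in EPRSTOPE. The ubiquitin ligase genes *Fbxl14*, *Fbxo45* and *Siah1b* had log2 fold changes of -0.74, -0.87 and -0.88 in EPR. In EPRSTOPE 2 of the 13 were called higher and 3 lower, beside 28.0% of all genes. Counts of RNA do not measure the stability of the proteins.

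Of 8 tested other EMT-associated factors, 3 were called lower in EPR and 0 higher, beside 12.9% and 15.2% of all genes. *Prrx2*, the relative of *Prrx1*, had 97, 120 and 196 counts in mock, 4, 0 and 4 in EPR and 0 in all EPRSTOPE libraries. It was thus expressed in mock cells although *Prrx1* was near 0. *Foxc1*, the relative of *Foxc2*, had 4.33, 6.42 and 5.84 CPM in mock and 2.26, 2.64 and 2.51 CPM in EPR, and 6.93, 7.35 and 5.97 CPM in EPRSTOPE libraries. It fell in EPR (log2 fold change -1.17, adjusted p = 0.0011) and EPR lay below EPRSTOPE (-1.45, adjusted p = 0.00053). *Foxq1* fell in both, with log2 fold changes of -0.87 and -1.45. In EPRSTOPE 2 of the 8 were called higher and 2 lower, beside 15.6% and 12.4% of all genes, and the median was 0.28 against mock, beside -0.60 in EPR.

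Of 8 tested epithelial factors that oppose EMT, 4 were called higher and 1 lower in EPR, and 5 higher and 1 lower in EPRSTOPE, beside 15.2% higher and 12.9% lower of all genes in EPR and 15.6% and 12.4% in EPRSTOPE. *Elf3* rose from 5.27 to 7.47 CPM in mock to 17.0 to 18.7 CPM in EPR and 29.8 to 34.0 CPM in EPRSTOPE libraries. *Klf4* rose by 0.86 (adjusted p = 7e-07) and 1.32 (adjusted p = 1.4e-08) on the log2 scale. *Ehf* had 2, 0 and 3 counts in mock, 172, 136 and 229 in EPR and 12, 22 and 12 in EPRSTOPE. *Foxa1* went the other way, with 55, 82 and 89 counts in mock against 4, 0 and 3 in EPR and 0, 1 and 1 in EPRSTOPE. E-box stretches of *Elf3* and *Foxa1* are printed above, and a link of the motif to these changes was not tested.

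The target lists were read last, as the genes these factors act on. Of 17 tested epithelial targets, 12 were called higher and 0 lower in EPR, with a median log2 fold change of 1.08, and 7 higher and 2 lower in EPRSTOPE, with a median of 0.46, or 0.10 with *Epcam*, at 0 in mock, held at the floor of 3 counts over the group. Of all tested genes, 15.2% were called higher and 12.9% lower in EPR, and 15.6% and 12.4% in EPRSTOPE. The 2 called lower in EPRSTOPE were *Crb3*, at -3.09 (adjusted p = 0.0026 in edgeR), and *Muc1*, at -0.69 (adjusted p = 0.00054 in edgeR). In EPR *Crb3* was at 0.10 and *Muc1* at 0.20, and neither was called. *Dsp*, a desmosome gene, rose by 1.57 and 1.24 on the log2 scale, and *Epcam*, *Cdh1* and *Ocln* were at or near 0 in mock. *Epcam* had 48, 19 and 46 counts in EPR but 0, 2 and 1 in EPRSTOPE. *Ocln* had 3, 3 and 2 counts in mock, 129, 95 and 123 in EPR and 37, 75 and 55 in EPRSTOPE. Of 16 tested mesenchymal targets, 10 were called lower and 4 higher in EPR, and 5 lower and 4 higher in EPRSTOPE, beside the same shares, with medians of -1.08 and -0.30. *Tnc* fell, with log2 fold changes of -3.22 and -2.09, while *Mmp3* rose by 4.47 and 7.02 on the same scale. *Adam12* fell in both, at -6.52 in EPR and -3.6 in EPRSTOPE on that scale, and *Fstl1* fell in EPR (-6.01) but had 92.1, 80.2 and 85.5 CPM in EPRSTOPE against 76.3, 81.5 and 75.4 CPM in mock. The targets of the lists were chosen with earlier results of these data known, so their directions are a description.

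**Figure D5:**
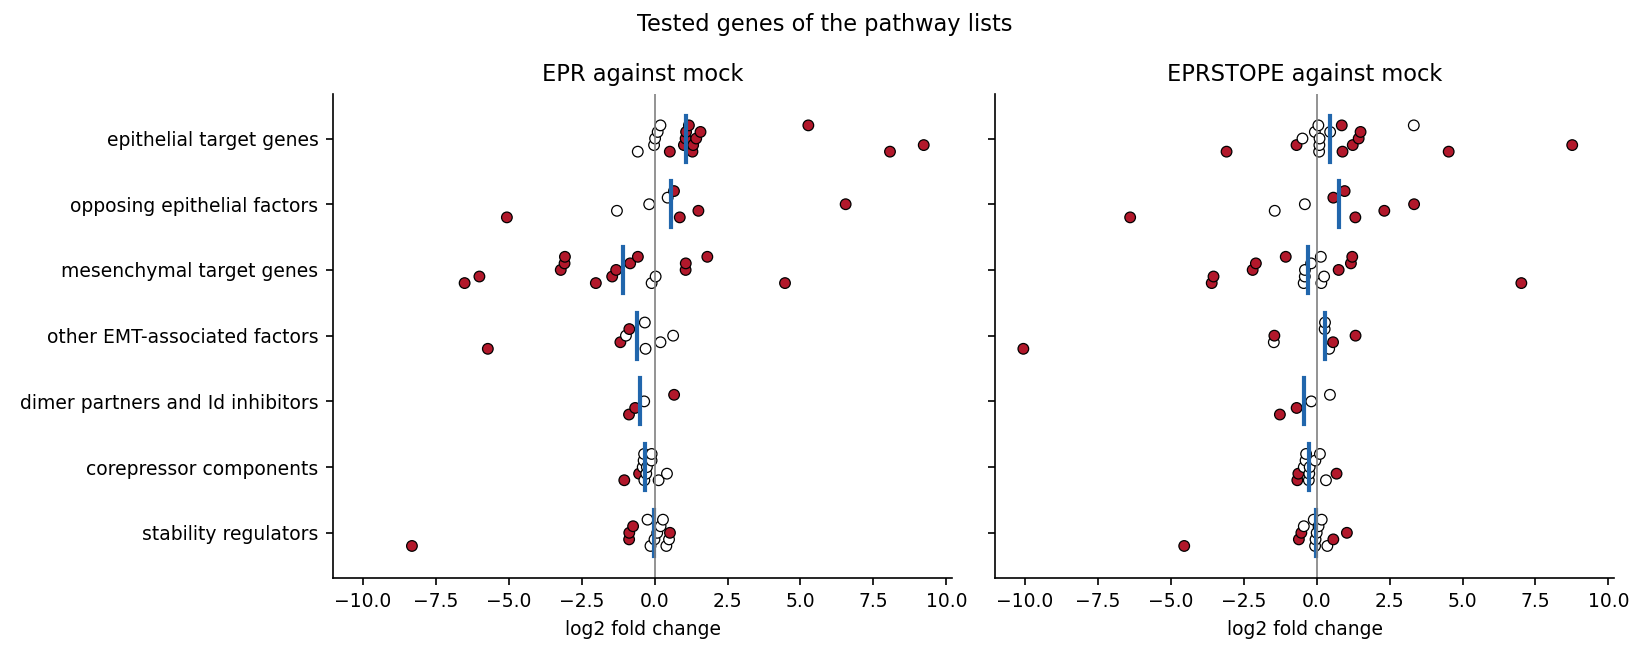
Log2 fold change of each tested gene of 7 lists, in EPR and in EPRSTOPE against the same mock libraries. Points are genes, filled where called, and blue lines are list medians. Most epithelial targets lie right of 0 in EPR, with a median of 1.08, and the mesenchymal targets lie mostly left there, with a median of -1.08. In EPRSTOPE the medians are 0.46 and -0.30.

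The tested genes whose profile over the 9 libraries was most like each factor's were found by Pearson's r of log2(CPM + 1), among genes of at least 10 CPM on average. The 9 points share group means, so r reflects the group pattern. Those nearest *Snai1* were *Tmed3* (r = 0.986), *Rap1gap2* (0.985) and *Ero1lb* (0.984). *Snai2* was closest to *Cuta*, *Ube2e3* and *Yars* (0.985 to 0.986), and *Zeb2* to *Nup153* (0.991), *Btbd7* (0.985) and *Otud4* (0.977). *Twist2* was closest to *Utp14b* (0.980), *Kdm1a* (0.974), itself one of the listed corepressor genes, and *Smc1a* (0.972). *Tcf3* was closest to *Aqr*, *Trak2* and *E2f8* (0.986 to 0.989). The nearest to *Tcf4* were *Anp32b*, *Hdgfl2* and *Api5* (0.929 to 0.948). *Zeb1* reached 0.903 with *Hccs*, 0.894 with *Erlin1* and 0.864 with *Gosr2*.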

How the data were processed

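Total RNA of NMuMG cells had been sequenced as 9 stranded paired-end libraries, 3 per group, grouped by the genotype label and named by the number in the title. The authors quantified reads with Kallisto 0.43.1 on Gencode vM15 transcripts (submitters' processing notes and methods) and deposited estimated counts and TPM per transcript, the estimated counts without normalization and the TPM scaled by the authors for effective length and library total. The strand setting is not given in the sources used here.

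Counts were summed per gene symbol over the transcripts and rounded. Genes reaching 1 CPM in 3 or more libraries (15370) entered edgeR 4.0.16 in R 4.3.3: TMM normalization, quasi-likelihood test, 1 factor of 3 levels fitted to all 9 libraries, Benjamini-Hochberg adjustment over all tested genes, and calls where the adjusted p was below 0.01 and the log2 fold change exceeded 0.5 in size, cut-offs of the study's methods. CPM were counts over the library total times the TMM factor. Errors are SD of 3 libraries or standard errors from the F statistic, and intervals are 95% on the same fit. The exact permutation test of single values cannot go below p = 0.1 here. The limit a count of 0 allows is 3 counts and covers counting error only.

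Named were the 10 factors, and from each list up to 4 called genes with the largest change in EPR against mock, and for each factor the 3 most similar genes. Markers and genes singled out in the label check, *Gm29100*, *Crb3* and *Muc1* were named beside them. The members and the lists were chosen with earlier results of these data known. Positions came from Gencode vM21 on GRCm38 and promoters from RefSeq (GRCm38.p6). Scripts (Python 3.11.15, pandas 2.3.3, numpy 2.4.6, scipy 1.17.1, matplotlib 3.10.9) were tested on simulated data. Alternatives were DESeq2 1.42.0, limma 3.58.1 with voom, other size factors, filters, thresholds and count scales, transcripts in place of genes, fits of the compared groups only, and leaving out each library.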

Additional observations from a re-analysis of the deposited data

Results flagged for a closer look

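The effects of EPR and EPRSTOPE on the same mock libraries were compared by the direct test of EPR against EPRSTOPE in edgeR. They differed for 3 of the 7 tested factors at an adjusted p under 0.05, though none passed both cut-offs used for calls. At that adjusted p, 4637 of all 15370 tested genes differed, so nothing about the factors as a set is read from the count. *Zeb2* differed by a log2 of -0.389 (adjusted p = 0.0096, 0.0036 to 0.039 when any 1 library was left out). *Snai1* differed by -0.828 (adjusted p = 0.030, range 0.026 to 0.097). *Tcf3* differed by -0.194 (adjusted p = 0.040, range 0.040 to 0.15). EPR RNA was also 5.90-fold higher in EPR than in EPRSTOPE cells, and the part of this dose difference was not tested.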

How the results depend on the processing

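No paired analysis was possible because the library numbers are unique and shared by no groups. DESeq2, limma-voom, DESeq2 size factors in edgeR, no filter, at least 10 counts in every library and fits of the compared groups only called the same factors. The calls of *Snai2*, *Twist2* and *Zeb2* in EPR and of *Snai1* in EPRSTOPE were lost only when the most abundant transcript stood for the gene, except that *Twist2* was kept in EPR. That setting left 1 factor called in EPR and 0 in EPRSTOPE, and 1545, 1729 and 343 genes called in EPR, EPRSTOPE and EPR against EPRSTOPE. Counts scaled from TPM left 1 factor called in EPRSTOPE, *Snai1*, with *Snai2* at -0.83 and *Twist2* at -0.98, and 922 genes in EPR against EPRSTOPE. An adjusted p under 0.05 at any fold change gave 5, 5 and 3 factors and 7478, 7442 and 4637 genes. For *Snai1*, which has 1 transcript, the EPRSTOPE log2 fold change was 1.58 by transcript (standard error 0.339) and 1.59 by gene (standard error 0.274). The transcript fit was adjusted over 45412 transcripts in place of 15370 genes. The cause of the changes in calls was not tested.

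With 1 library left out, 3 to 4 factors were called in EPR, 2 to 3 in EPRSTOPE and 0 directly, and 3816 to 4328, 3817 to 4251 and 1664 to 2026 genes. The values that changed sign were all near 0. *Zeb1* in EPR against mock reached 0.009 with counts scaled from TPM and 0.021 by transcript. *Zeb1* in EPR against EPRSTOPE, -0.015 in the report's fit, reached 0.003 without a filter, 0.017 with at least 10 counts in every library, 0.082 with counts scaled from TPM and 0.15 by transcript, and ran from -0.085 to 0.028 with 1 library left out. *Tcf4* in EPRSTOPE against mock reached 0.20 by transcript and ran from -0.14 to 0.046 with 1 library left out. Library sizes over all genes, a setting chosen after seeing the data, changed no factor's call but moved the direct adjusted p of *Zeb2* to 0.012 and of *Tcf3* to 0.054, within 0.0029 to 0.92 and 0.043 to 0.96 over the settings that kept all libraries. Depth left *Twist1*, *Foxc2* and *Prrx1*, at 0 to 4 counts per library, untested, and *Snai1* and *Snai2* rest on 17 to 88 counts per library. With 1 library left out, *Snai2* and *Twist2* in EPR against EPRSTOPE ran from -0.68 to -0.27 and from -0.55 to -0.14.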
